A study of Mus musculus with 2 samples.

Results

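Mir15a, Mir16-1, Mir15b, Mir16-2, Mir195a and Mir497 are the autosomal genes of the miR-15/16 family, and they were taken by gene symbol from microRNA-seq of mouse heart. They are 6 of the 2202 miRNA genes in the tables. The samples were 2 hearts of 10-day-old female B6CASTF1/J mice, the first-generation hybrid of the strains C57BL/6J and CAST/EiJ, with 1 library of total RNA each, size-selected for short inserts. The hearts carry the biological replicate numbers 1 and 2 and come from separate biosamples. No treatment, second tissue or second age was given, so each heart is a replicate of 1 untreated group and no condition was compared. The tissue was heart, a mixture of cell types, and in such bulk samples fewer cells of a type and less RNA per cell cannot be told apart.

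MicroRNAs are short RNAs that guide the Argonaute proteins to messenger RNAs, mainly by pairing of the seed, the bases near the 5′ end. Members of the miR-15/16 family share their seed and are known to repress genes of cell cycle progression, among them cyclins and checkpoint kinases. In the mouse heart the family is known from work on the time after birth when cardiomyocytes leave the cell cycle, in which miR-195 in particular has been studied.

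The 6 genes form 3 pairs of neighbouring hairpins, each pair with 1 gene of the miR-15 kind and 1 of the miR-16 kind or their relatives. The mature sequences of the 5p arms, from the RefSeq table for GRCm38.p6 (mm10), are shown 5′ to 3′ with the seed (bases 2 to 8) in capitals, because the seed is what the members have in common and the rest is what lets their reads be told apart. All 6 members matched a mature entry in that table and 5 matched a hairpin.
miR-15a-5p: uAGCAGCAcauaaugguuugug
miR-15b-5p: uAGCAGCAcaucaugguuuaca
miR-16-5p: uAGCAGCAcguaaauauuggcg
miR-195a-5p: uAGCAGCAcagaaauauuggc
miR-497a-5p: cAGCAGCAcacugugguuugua
miR-322-5p: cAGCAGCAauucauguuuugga
The last of these is the product of the X-linked gene Mir322 and is printed because it has the same seed. Counting positions from 1 at the 5′ end of the first-named sequence, miR-15a-5p and miR-15b-5p were identical at 18 of 22 positions and differed by A12C, G20A, U21C and G22A. Over the 21 bases of miR-195a-5p, it was identical to miR-16-5p at 19 positions and differed by G10A and U11G. MiR-497a-5p was closer to miR-15a-5p (17 of 22 positions identical, with U1C, U11C, A12U, A13G and G22A) than to miR-16-5p (11 of 22). By sequence, the pairs Mir15a with Mir16-1, Mir15b with Mir16-2 and Mir497 with Mir195a each joined 1 sequence of either kind.

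Mir16-1 and Mir16-2 produce the same miR-16-5p, so they are separated only by the bases around it. The stretches below, 5′ to 3′, carry in capitals the 23 nt that both hairpins share, and in lower case 6 bases on either side.
Mir16-1: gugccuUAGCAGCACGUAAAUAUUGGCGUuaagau
Mir16-2: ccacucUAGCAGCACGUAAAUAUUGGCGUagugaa
The first lies at chr14:61631929-61631963 on the minus strand and the second at chr3:69009912-69009946 on the plus strand. A read of miR-16-5p alone therefore matches 2 hairpins equally. Reads with more than 1 position are kept in a category of their own and are given to no gene. The 3p arms of the 2 genes have other letters and other seeds (capitals), and reads of these arms can be placed.
miR-16-1-3p: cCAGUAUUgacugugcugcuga
miR-16-2-3p: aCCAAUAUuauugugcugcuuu
These 3p arms differed at 10 positions. The deposited counts are per gene and do not separate arms, so the levels of Mir16-1 and Mir16-2 below are uncertain and are those of uniquely placed reads. Runs were searched for the 5 members whose hairpin was matched, so not for Mir15a. Hairpins that overlap a member in position were left out of the search. Mir497b, which covers Mir497 on the opposite strand, was therefore not compared with it. The longest run of bases shared with another hairpin was 16 nt for Mir195a (with Mir195b), 12 nt for Mir497 (with Mir324, as reverse complement) and 11 nt for Mir15b. None of the mature sequences of Mir15a, Mir15b, Mir195a and Mir497 was found in another hairpin of the table.

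Mir15a (ENSMUSG00000093007.1) lies at chr14:61632027-61632110 and Mir16-1 (ENSMUSG00000092995.1) at chr14:61631880-61631972, both on the minus strand and 54 bases apart (mm10, GENCODE M21). Both are within Dleu2, a long non-coding RNA gene on the same strand. Mir15a was intronic in all 8 Dleu2 transcripts that span it, and Mir16-1 overlapped an exon in 1 of 9. Mir15b (ENSMUSG00000065580.2, chr3:69009772-69009835) and Mir16-2 (ENSMUSG00000065606.1, chr3:69009902-69009996) are on the plus strand, 66 bases apart. They lie in an intron of all 5 spanning transcripts of Smc4, which encodes a condensin subunit used in packing chromosomes for mitosis. Mir497 (ENSMUSG00000105220.1, chr11:70234717-70234800) and Mir195a (ENSMUSG00000065411.2, chr11:70235042-70235135) are 241 bases apart on the plus strand. No non-miRNA gene overlapped them, and the nearest, 0610010K14Rik on the opposite strand, lay 70 bases from Mir195a and 405 bases from Mir497.

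**Figure D1:**
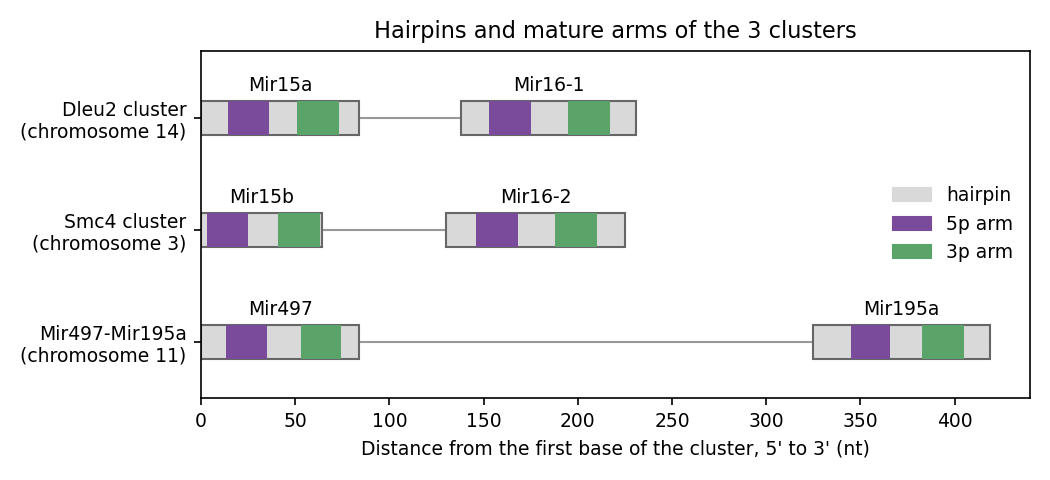
Maps of the 3 clusters, drawn to scale in nt from the first base of each cluster in its direction of transcription, with hairpins and mature arms as boxes. The clusters span 231 nt (Mir15a and Mir16-1), 225 nt (Mir15b and Mir16-2) and 419 nt (Mir497 and Mir195a), and the last has the widest gap.

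The Mir497 hairpin, 84 nt long, lies wholly inside Mir497b, a miRNA gene annotated on the opposite strand. The letters show how far their products mirror each other, with the 17 positions that are paired on opposite strands in capitals.
miR-497a-3p: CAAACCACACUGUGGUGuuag
miR-497b: CACCACAGUGUGGUUUGgacgugg
MiR-497a-3p lies at chr11:70234770-70234790 on the plus strand and miR-497b at chr11:70234763-70234786 on the minus strand. Mir497b had 1 count in each heart, so on the gene strand the reads at this locus were on the side of Mir497. In the column counted without regard to strand Mir497 had 0 counts in both hearts. That column set aside 1153617 and 1474322 reads as ambiguous, against 0 on the gene strand.

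Replicate 1 held 10782737 reads and replicate 2 held 10201509, of which 4260561 (39.5%) and 4583025 (44.9%) were counted on miRNA genes. Reads placed at more than 1 position made up 38.9% and 38.0%. Levels are given as CPM, the counts scaled to a total of 1000000 on miRNA genes in each library, and as mean ± SD over 2 hearts. Each read stands for a whole short RNA, so levels were not divided by length. A gene was taken as detected from 10 counts upwards in each heart, which 346 of the 2202 genes reached, all 6 members among them. As a check on the tissue, 6 of 7 cardiac muscle markers were detected, in unequal amounts. The markers that lie in cardiac myosin genes were well counted, with Mir499 at 5442 and 4126 CPM, Mir208a at 2957 and 1367 CPM and Mir208b at 1245 and 1043 CPM. The classic heart and muscle miRNA genes were low in uniquely placed reads: Mir1a-2 was at 43.4 and 53.5 CPM, Mir133a-1 at 7.75 and 2.62 CPM, Mir1a-1 at 2.58 and 2.62 CPM and Mir133a-2 at 1.41 and 0.873 CPM. Their paired genes make the same mature miRNA, so these values do not measure the level of miR-1a or miR-133a.

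Together the 6 genes took 0.711% of the miRNA gene counts in replicate 1 (30298 counts, exact 95% Clopper-Pearson interval 0.703 to 0.719) and 1.64% in replicate 2 (75135 counts, 1.63 to 1.65). The mean was 1.18% ± 0.656 (SD, n = 2). Folds of summed counts between the hearts are given with library sizes scaled by trimmed mean of M values (TMM) and so are not the plain ratio of the shares. By that scale the members' summed counts were 2.41-fold higher in replicate 2. Without Mir195a the other 5 took 0.569% and 0.887%, and their summed counts were 1.63-fold higher by the TMM scale. These intervals hold the error of counting reads alone, as the labels name no molecular identifiers. The shares are of uniquely placed reads and leave out reads of miR-16-5p alone.

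Mir15a, the first gene of the Dleu2 pair, had 6208 counts (1457 CPM) in replicate 1 and 12536 (2735 CPM) in replicate 2. Its mean was 2096 ± 904 CPM and its rank among all genes went from 64 to 42. Mir16-1 stood at 4058 counts (952 CPM) and 4699 (1025 CPM), with a mean of 989 ± 51.5 CPM. By uniquely placed reads, which leave out reads of miR-16-5p alone, it was the steadiest of the 6. Its SD was 5.21% of its mean, against 43.1% for Mir15a in the same host gene. Whether all reads from Mir16-1 were as steady was not tested.

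Mir15b, from the Smc4 intron, had 9865 counts (2315 CPM) in replicate 1 and 16538 (3609 CPM) in replicate 2. Its mean was 2962 ± 914 CPM, and it was the leading member in replicate 1. Mir16-2 was the lowest of the 6 by uniquely placed reads in both hearts, with 857 counts (201 CPM) and 1229 (268 CPM). Its level of 235 ± 47.4 CPM still placed it 11th of the 40 detected genes whose mature sequence was found in another hairpin of the RefSeq table. Mir16-1 was 4th. Hairpins missing from that table could not be searched, so the set of 40 is incomplete and the ranks hold within it only.

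Mir195a, the member best known from the postnatal heart, had 6066 counts (1424 CPM) in replicate 1 and 34495 (7527 CPM) in replicate 2. Its mean of 4475 ± 4315 CPM had an SD nearly as large as the mean (96.4% of it). It was the 66th gene by count in replicate 1 and the 24th in replicate 2. Mir497, 241 bases away, had 3244 counts (761 CPM) and 5638 (1230.2 CPM), with a mean of 996 ± 331 CPM. All 6 genes were higher in replicate 2, and the step was widest in Mir195a.

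The order by level, taken from uniquely placed reads, differed between the hearts. In replicate 1 it was Mir15b, Mir15a, Mir195a, Mir16-1, Mir497 and Mir16-2. Mir15a and Mir195a were not separable there: Mir195a over Mir15a was 0.977 with an exact 95% interval of 0.943 to 1.01. In replicate 2 the order was Mir195a, Mir15b, Mir15a, Mir497, Mir16-1 and Mir16-2. Mir195a then stood 2.75-fold above Mir15a and 2.09-fold above Mir15b. By mean over both hearts the order was Mir195a, Mir15b, Mir15a, Mir497, Mir16-1 and Mir16-2. Each of the first 5 overlapped its neighbour in that order within 1 SD, and Mir16-2 did not overlap Mir16-1. The SDs do not use that the genes were counted in the same hearts. Within each heart, Mir15b stood above Mir15a and Mir15a above Mir497. Mir195a and Mir15b changed order between the hearts, as did Mir497 and Mir16-1.

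**Figure D2:**
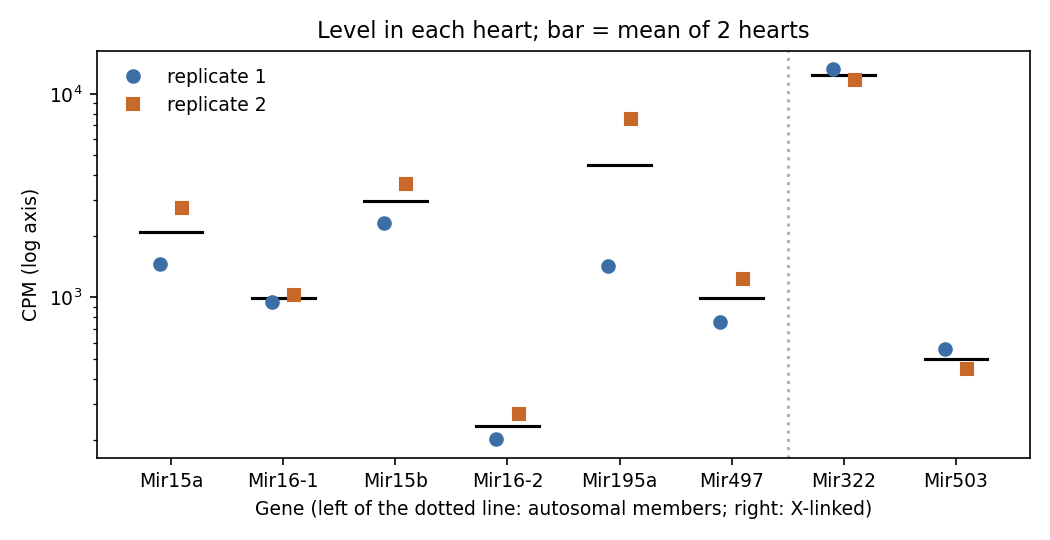
Level of each gene in CPM on a log axis, with a circle for replicate 1, a square for replicate 2 and a bar at the mean of the 2 hearts. All 6 autosomal genes lie higher in replicate 2, Mir195a by the widest step (1424 to 7527 CPM), while the X-linked Mir322 and Mir503 lie lower.

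Mir195a made up 20.0% of the members' counts in replicate 1 and 45.9% in replicate 2. The other 5 each took a smaller share in replicate 2: Mir15b went from 32.6% to 22.0%, Mir15a from 20.5% to 16.7%, Mir16-1 from 13.4% to 6.25%, Mir497 from 10.7% to 7.50% and Mir16-2 from 2.83% to 1.64%. Of the members' summed difference in CPM, Mir195a accounted for 65.7%, Mir15b for 13.9% and Mir15a for 13.8%. Mir16-1 and Mir16-2 accounted for 0.785% and 0.722%. All of these are parts of the uniquely placed reads, so reads of miR-16-5p alone are in none of them.

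Between the libraries, each gene was compared by an exact two-sided binomial test on its counts, given the TMM-scaled library sizes, with Benjamini-Hochberg adjustment over the 375 genes whose counts summed to at least 20. It compares the reads of these 2 libraries, not conditions. At this depth the test called 55.2% of all genes tested, 26.1% as higher in replicate 2 and 29.1% as lower. All 6 members passed it and all 6 were higher in replicate 2. Among the 156 genes whose counts summed to at least 1000, as every member's did, 89.7% were called, so passing the test is common at these counts. The members' median log2 ratio of replicate 2 over replicate 1 was 0.73, beside -0.02 over all genes tested.

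Mir195a had a log2 ratio of 2.47 (exact 95% interval 2.43 to 2.51), which is 5.54-fold. It was the 1 member past the test and 2-fold or more apart, a combination met by 10.9% of all genes tested. Mir15a joined it under 2 other settings, with log2 ratios of 1.01 (DESeq2 size factors) and 1.09 (all reads). The DESeq2 size factors were 1 for both libraries, so that setting compares unscaled counts. Among the 156 genes of at least 1000 summed counts, 2 had a higher ratio and the median absolute log2 ratio was 0.31. Mir15a was at 0.98 (0.93 to 1.02), or 1.97-fold, with 8 of the 156 genes above it. Mir497 was at 0.76 (0.70 to 0.82; exact binomial test, Benjamini-Hochberg adjusted p = 2.07e-129) and Mir15b at 0.71 (0.67 to 0.74). Mir16-2 followed at 0.48 (0.35 to 0.61; exact binomial test, adjusted p = 1.64e-13). Mir16-1 had the smallest ratio, 0.17 (0.11 to 0.23; exact binomial test, adjusted p = 7.57e-08), with 55 of the 156 genes above it.

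**Figure D3:**
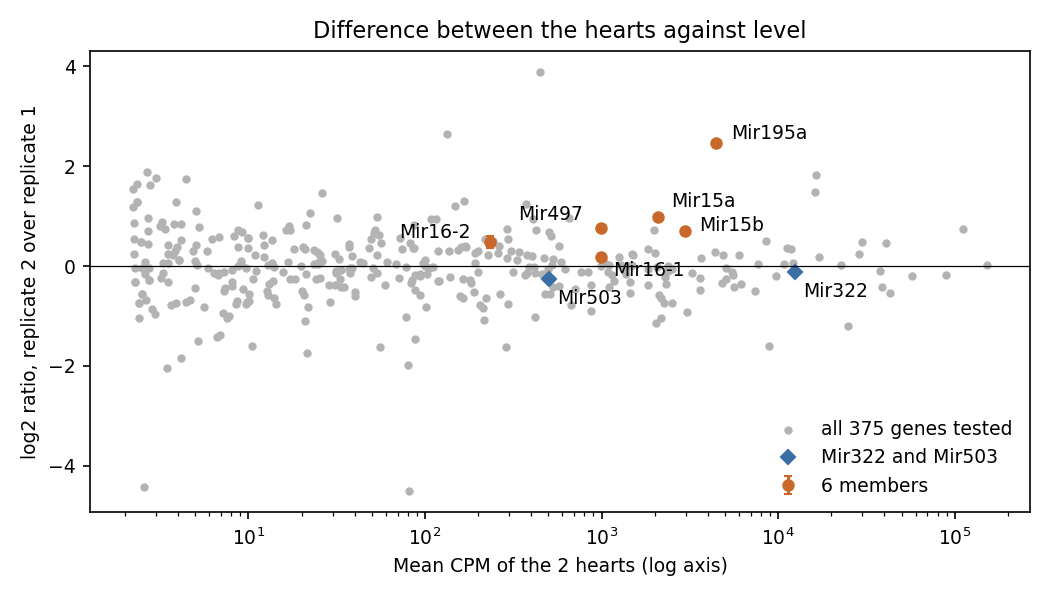
Log2 ratio of replicate 2 over replicate 1 against mean CPM (log axis) for all 375 genes tested (grey), the 6 members with exact 95% intervals, and the X-linked Mir322 and Mir503 (diamonds). The members lie above 0, from 0.17 for Mir16-1 to 2.47 for Mir195a, while Mir322 (-0.11) and Mir503 (-0.26) lie below it.

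Within a heart, the ratio of neighbouring genes does not depend on how the libraries were scaled. Mir195a exceeded Mir497 by 1.87-fold in replicate 1 (1.79 to 1.95, exact 95% interval) and by 6.12-fold in replicate 2 (5.95 to 6.29). Mir15a exceeded Mir16-1 1.53-fold (1.47 to 1.59) and 2.67-fold (2.58 to 2.76). Mir15b exceeded Mir16-2 11.5-fold (10.7 to 12.4) and 13.5-fold (12.7 to 14.3). Ratios with Mir16-1 or Mir16-2 hold for uniquely placed reads only, as reads that match both genes are in neither count. The first 2 pairs thus differed between the hearts by 3.27 and 1.74 times, and the Smc4 pair by 1.17 times, with the intervals of the hearts apart in each case.

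The same measure was taken for all neighbouring genes on 1 strand, less than 1000 bases apart and each with at least 1000 summed counts, which gave 29 pairs, 3 of them of members. This comparison was chosen after the members' values were seen and has no test. The absolute difference of the neighbours' log2 ratios had a median of 0.45 in the 26 other pairs (range 0.09 to 2.09). It was 1.71 for Mir497 and Mir195a, the third highest of all 29. By uniquely placed reads, it was 0.80 for Mir16-1 and Mir15a (8th) and 0.23 for Mir15b and Mir16-2 (24th). Only the pairs Mir296 with Mir298 (2.09) and Mir99b with Mirlet7e (1.78) were farther apart than Mir497 and Mir195a.

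**Figure D4:**
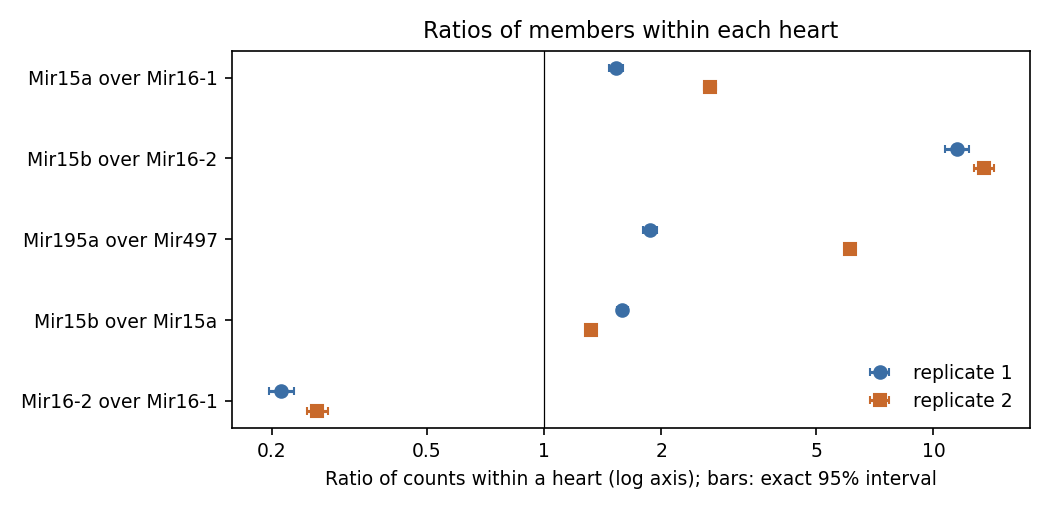
Ratios of counts of uniquely placed reads between members within each heart on a log axis, with exact 95% intervals (counting error only). Mir195a over Mir497 moved from 1.87 in replicate 1 to 6.12 in replicate 2, whereas Mir15b over Mir16-2 stood at 11.5 and 13.5.

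The like genes of the 2 clusters on chromosomes 14 and 3 were also set against each other. Mir15b over Mir15a was 1.59 (1.54 to 1.64) in replicate 1 and 1.32 (1.29 to 1.35) in replicate 2. Mir16-2 over Mir16-1 was 0.211 (0.196 to 0.227) and 0.262 (0.245 to 0.279). The Smc4 intron thus held the higher of the miR-15 genes in both hearts. By uniquely placed reads it also held the lower of the miR-16 genes. Reads that match both miR-16 genes are in neither count, so which of these genes gave more miR-16 was not tested. Summed by cluster, the Dleu2 pair took 0.241% and 0.376% of the miRNA counts and the Smc4 pair 0.252% and 0.388%. The chromosome 11 pair took 0.219% and 0.876%. In replicate 1 the 3 shares of uniquely placed reads were within 0.219% to 0.252%. Reads that match both miR-16 genes are missing from the Dleu2 and Smc4 sums. These shares and the folds below therefore do not compare the whole output of the clusters. With TMM-scaled library sizes, the summed counts of replicate 2 were 1.63-fold those of replicate 1 for the Dleu2 pair, 1.61-fold for the Smc4 pair and 4.20-fold for the chromosome 11 pair.

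The seed AGCAGCA was carried by 11 of the 1738 mature sequences in the RefSeq table (0.633%), and all 11 genes were in the count tables. Besides the 6 members, Mir322 was counted in both hearts, and Mir195b, Mir6342, Mir6353 and Mir6419 had 0 counts in both. Mir322, which lies on the X chromosome (chrX:53054255-53054349, minus strand), had 56223 counts (13196 CPM) in replicate 1 and 53420 (11656 CPM) in replicate 2. Its log2 ratio was -0.11 (-0.13 to -0.10; exact binomial test, Benjamini-Hochberg adjusted p = 1.99e-37), against 0.17 to 2.47 for the members. Mir503, its neighbour, whose mature 5p sequence differs from that of miR-15a in the seed by A8G, had 2374 counts (557 CPM) and 2035 (444 CPM).
miR-503-5p: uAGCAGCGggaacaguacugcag
The log2 ratio of Mir503 was -0.26 (-0.35 to -0.18; exact binomial test, adjusted p = 6.81e-09).

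All genes of the seed together took 2.03% and 2.81% of the miRNA gene counts. These shares hold uniquely placed reads, so reads of miR-16-5p alone, which has the same seed, are not in them. The counts are per gene and do not separate arms, so they can also hold reads of the 3p arms, which have other seeds. The shares in this paragraph are therefore of genes and not of reads that carry the seed. The 6 autosomal members made up 35.0% of these in replicate 1 (34.7 to 35.3, exact 95% interval) and 58.4% in replicate 2 (58.2 to 58.7). Mir322 alone supplied 65.0% in replicate 1 and 41.6% in replicate 2. Mir195a went from 7.01% to 26.8% and Mir15b from 11.4% to 12.9%. The 6 members over Mir322 and Mir503 together gave a ratio of 0.517 (0.510 to 0.524) in replicate 1 and 1.35 (1.34 to 1.37) in replicate 2. By uniquely placed reads Mir322 had the most counts of any gene of the seed in both hearts, and the members as a group were below it in replicate 1 and above it in replicate 2.

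**Figure D5:**
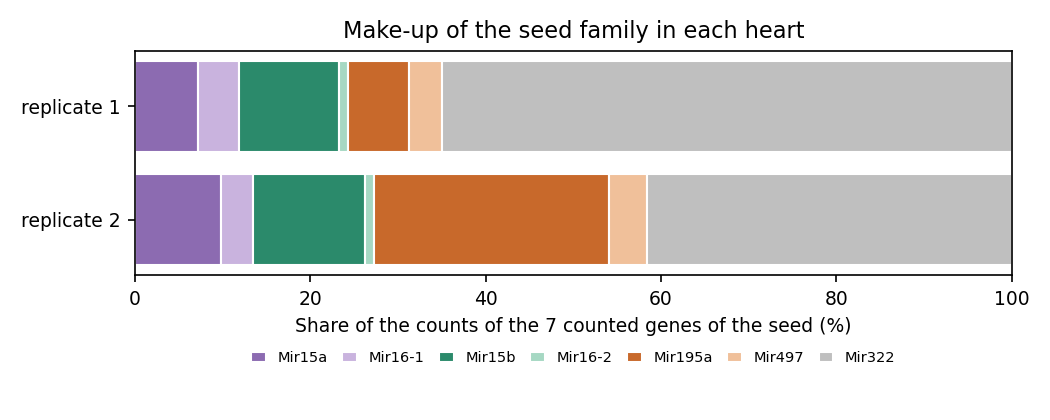
Make-up of the counted genes of the seed AGCAGCA in each heart, as percent of their summed counts. Mir322 took 65.0% in replicate 1 and 41.6% in replicate 2, and Mir195a 7.01% and 26.8%.

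Of the genes with at least 1000 summed counts, the 5 nearest to Mir195a by log2 ratio over the 2 hearts were Mir144, Mir99b, Mir22, Snord43 and Mir451a. Mir144, a miRNA of red blood cell precursors, went from 163 to 1046 counts (2.64). Mir99b had 31672 and 115908 counts (1.83) and Mir22, which is abundant in cardiac muscle, 37754 and 108271 (1.48). Snord43, annotated as a small nucleolar RNA by its name, was at 1.30 and Mir451a, also erythroid, at 1.25. With 2 hearts this likeness rests on 1 difference per gene. Its nearest gene was 0.17 away and the second 0.64.

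A list of 30 miRNA genes known from work on cardiomyocyte proliferation gave the setting for the members. Of these, 29 were found (Mir590 was not), 21 were detected and 22 were tested. Of the 22, 7 were higher in replicate 2, 10 lower and 5 did not pass. Over all 375 genes tested, 26.1% were higher and 29.1% lower. Among genes with at least 1000 summed counts, 89.7% were called. The list's median log2 ratio was -0.02, as over all genes tested. The list was not divided by effect on proliferation, so this median carries no direction of effect. By level it was led by Mir322, Mir93 (6043 and 5128 CPM), Mir499 (5442 and 4126 CPM) and Mir17 (4297 and 2960 CPM), with log2 ratios of -0.11, -0.17, -0.33 and -0.47. Mir93 and Mir17 belong to the miR-17 family, which is known to promote proliferation, and Mir499 lies within a cardiac myosin gene. Mir34a, known as a target of p53, was at 2613 and 2398 CPM (-0.06; exact binomial test, adjusted p = 0.00641). Mir92-1 was at 1864 and 2126 CPM (0.26) by uniquely placed reads, as a mature sequence of it was found in 1 other hairpin.

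Marker lists of the cell types a heart can hold also differed between the hearts. Of all genes tested, 55.2% were called, so calls within these lists are common. The summed level of the cardiac muscle list was 9699 CPM in replicate 1 and 6596 CPM in replicate 2, with 1 of 6 tested genes higher, 4 lower and 1 not past the test. Mir208a, which lies within a cardiac myosin gene, had 12599 and 6263 counts (log2 ratio -1.05). The endothelial list summed to 87599 and 138494 CPM through Mir126a (0.74), while Mir221 (-0.89) and Mir222 (-1.46) were lower. The fibroblast list went from 18119 to 9411 CPM (1 higher, 2 lower of 3) through Mir21a (-1.60), while Mir214 was higher (0.22). The smooth muscle list went from 53735 to 35952 CPM (1 lower and 1 not past of 2) through Mir143 (-0.54), while Mir145a did not pass (-0.02). The erythroid list went from 550 to 1048 CPM, with all 3 genes higher: Mir144 (2.64), Mir451a (1.25) and Mir486 (0.15). The white blood cell list was at 3607 and 3720 CPM (2 higher and 3 not past of 5), the skeletal muscle list at 21.6 and 19.4 CPM (neither gene past the test) and the liver gene Mir122 at 76.3 and 141 CPM. Of 6 neuronal genes, 5 had 0 counts in both hearts and Mir9-3 had 0 and 2. Mir9-1, Mir9-2 and Mir9-3 share their mature sequence with 2 other hairpins each, so these counts do not show whether it was present. Whether the Mir124a genes share theirs was not tested, so their 0 counts do not show that it was absent. The part of these lists in the members' difference was not tested.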

How the data were processed

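Per the file headers, the authors deposited for each library 1 table of raw read counts per miRNA gene on the assembly mm10 with GENCODE annotation M21. For the aligner and the counter, names and versions were not given in the sources used here. All 2202 gene IDs matched M21 by ID. The gene-strand column was used. Category rows (unmapped, multimapping, outside features) were left out of library sizes, at 60.5% and 55.1% of reads. The signal tracks named in the headers were not used here.

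CPM and shares were computed over counts on miRNA genes, with Clopper-Pearson 95% intervals. Library sizes were scaled with TMM factors (1.02 and 0.977) from edgeR 4.0.16 in R 4.3.3. Genes whose counts summed to at least 20 entered the exact binomial test, with Benjamini-Hochberg adjustment at 0.05. The test was tried on simulated counts that held counting error alone. That trial cannot show how the test behaves with variation between animals. The p-values measure only the counting spread between these 2 libraries; each library has its own biosample, while the labels give both 1 donor record. Seeds, shared runs and mature copies were read from RefSeq's GRCm38.p6 table by string matching.

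Named genes were the 6 members, counted genes of the same seed, opposite-strand miRNA genes, the 5 genes nearest to Mir195a by log2 ratio, up to 6 of the proliferation list and up to 2 of each marker list. Others were named after their values were seen: the other cardiac muscle markers, Mir503, Mir222 and Mir486. So were the Mir9 and Mir124a genes, the seed genes at 0 and the neighbour pairs. The members and lists were chosen with earlier results of these data known. The proliferation list was written with 32 symbols, of which Mir18a and Mir92a-1 name the genes Mir18 and Mir92-1 also in it. The alternatives were other scalings (all reads, total counts, size factors of DESeq2 1.42.0), the unstranded column, other count minimums, a 2-fold requirement and leaving out Mir195a, the most abundant gene or a replicate. Computation used Python 3.11.15, numpy 2.4.6, pandas 2.3.3, scipy 1.17.1 and matplotlib 3.10.9.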

Additional observations from a re-analysis of the deposited data

Results flagged for a closer look

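Reads placed at more than 1 position numbered 4193785 in replicate 1 and 3872896 in replicate 2. They are listed here because they lie outside the gene counts used above and exceed 3 counts, the limit set by a count of 0. The tables do not say which genes they came from, so how many are reads of miR-16-5p was not tested.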

How the results depend on the processing

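Of 77 alternative values, 4 chosen after seeing the data, 14 leave out a replicate. Of the other 63, 49 were kept and 14 moved, and none reversed. Levels and shares were kept within 1 SD, and ratios between the hearts with the same direction and call. Within-heart ratios were kept inside their exact interval. Counts of members were kept within a set fold, so 5 members against 6 is a count that was kept. All 23 ratios between the hearts kept their direction. The 8 within-heart ratios counted without strand are the same by construction, since these genes have equal counts in both columns, and Mir195a over Mir497 had no alternative. With total counts as the scale, the log2 ratio of Mir16-1 was 0.11 (exact binomial test, adjusted p = 0.00142). The count of members past the test was 1 when a 2-fold ratio was also required and 5 without strand, where Mir497 has no counts. With a 2-fold ratio required it was 2 by DESeq2 size factors or over all reads, where Mir15a joined Mir195a. The DESeq2 size factors were 1 for both libraries and so left the counts unscaled. Over all reads the members' share was 0.509%. Over all reads the levels were 902 for Mir15a, 418 for Mir16-1, 1268 for Mir15b, 99.98 for Mir16-2 and 427 for Mir497 per 1000000 reads, since the denominator is larger. Counted without strand, where fewer reads are assigned to genes, they were 3015, 1409, 4247, 336 and 0 CPM in the same order. Mir195a was at 1972 over all reads and 6524 CPM without strand, against 4475, which is within its wide SD of 4315. Of the calls, 47.3% were higher in replicate 2, against 61.5% over all reads, which moved the median of all genes by 0.12, and 39.9% with total counts.

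Leaving out a heart gives the other heart's value: the share ranged from 0.711% to 1.64% and Mir195a from 1424 to 7527 CPM. The levels in CPM ranged from 1457 to 2735 for Mir15a, 952 to 1025 for Mir16-1, 2315 to 3609 for Mir15b, 201 to 268 for Mir16-2 and 761 to 1230.2 for Mir497. No paired analysis was possible because the labels give 1 group. With 2 hearts, no value separates a feature of 1 library from variation between animals, and reads of miR-16-5p alone match 2 genes.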
